A study of Mus musculus with 9 samples.

Results

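The 9 genes described here encode the core of the mouse Hedgehog pathway: the ligands Shh, Ihh and Dhh, the receptor Ptch1, the transducer Smo, the transcription factors Gli1, Gli2 and Gli3, and the ligand-binding inhibitor Hhip. They were chosen by symbol, and each symbol has 1 transcript cluster (the set of array probes that stands for a gene) among the 22206 that were tested. Levels were measured on Clariom S arrays, with 3 biological replicates per group. The mice were female, of strain C57BL6/J and 12 weeks old, and the tissue was the submandibular gland. All animals had surgery. The groups are mock surgery sampled on day 3, partial gland resection sampled on day 3, and partial resection sampled on day 14. Mock glands had been left to heal for 3 days only, so at day 14 resection cannot be told apart from the time since surgery. The labels name the tissue only as salivary gland and the series title as submandibular. Nothing in them says whether a replicate is 1 animal.

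Hedgehog ligands are secreted, lipid-modified proteins. Without ligand, Ptch1 holds Smo inactive. When a ligand binds Ptch1, Smo accumulates in the primary cilium and the Gli factors shift from repressing to activating their targets. Ptch1, Gli1 and Hhip are themselves targets, so their transcript levels are widely used as a readout of pathway activity, and Ptch1 and Hhip limit the signal by binding ligand. In the embryonic mouse submandibular gland Shh is made by the epithelium and supports branching. Dhh is best known from Schwann cells and testis, and Ihh from cartilage and gut.

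No member of the pathway passed the test in any of the 3 comparisons. By limma with Benjamini-Hochberg adjustment over all 22206 transcript clusters and a threshold of 0.05, 0 of 9 members were called in day 3 resected against mock glands, where 6.27% of all transcript clusters were called. The count was 0 of 9 in day 14 resected against mock glands (0.153% of all transcript clusters) and 0 of 9 in day 14 against day 3 resected glands (6.28%). At an unadjusted p under 0.05 the member counts in the same order were 0, 0 and 1 of 9, the last being Gli1, where 18.6%, 8.18% and 18.9% of all transcript clusters passed, so the count of 1 is not above the background share. The adjusted p-values of the members ran from 0.328 to 0.979 on day 3 and from 0.878 to 1.00 on day 14 against mock, and from 0.252 to 0.883 between the resected groups. With 3 arrays a group, the 95% intervals of the members reached from -1.53 to 1.16 log2 on day 3 and from -0.80 to 1.03 on day 14 against mock. In whole glands, fewer cells of a type and less RNA per cell cannot be told apart.

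A promoter window is shown for each of 3 members, because Ptch1 and Hhip are feedback targets of the pathway and Gli2 had the largest day 3 difference among the 9. Each sequence is the 250 bases before an annotated transcription start (RefSeq, GRCm38.p6, minus strand, read 5′ to 3′ along the gene). The Ptch1 and Gli2 windows lie inside the annotated span of the gene and the Hhip window reaches into it. Each gene therefore has a start further upstream. The window before that start was not read for Ptch1 and Gli2, and for Hhip it overlaps the printed window in part. Capitals mark the 6-base core CCACCC, or GGGTGG on the other strand, of the site that Gli proteins bind.
Ptch1, chr13:63565736-63565985: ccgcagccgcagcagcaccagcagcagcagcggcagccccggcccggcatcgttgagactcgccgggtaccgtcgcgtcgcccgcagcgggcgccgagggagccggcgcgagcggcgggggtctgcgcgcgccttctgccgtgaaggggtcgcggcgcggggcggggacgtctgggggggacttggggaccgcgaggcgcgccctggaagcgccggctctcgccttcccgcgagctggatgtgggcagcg
Hhip, chr8:80058009-80058258: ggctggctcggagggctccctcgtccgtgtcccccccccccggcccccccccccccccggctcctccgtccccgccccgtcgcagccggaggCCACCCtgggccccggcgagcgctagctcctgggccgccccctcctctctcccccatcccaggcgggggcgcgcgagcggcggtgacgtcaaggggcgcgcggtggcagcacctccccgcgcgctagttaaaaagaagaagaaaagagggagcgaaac
Gli2, chr1:119053620-119053869: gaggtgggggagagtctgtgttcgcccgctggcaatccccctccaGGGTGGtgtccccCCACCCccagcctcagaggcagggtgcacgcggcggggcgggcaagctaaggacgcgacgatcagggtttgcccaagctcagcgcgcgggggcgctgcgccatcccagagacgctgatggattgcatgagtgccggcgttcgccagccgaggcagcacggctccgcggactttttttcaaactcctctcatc
The full 9-base Gli site GACCACCCA, searched on both strands, was in 0 of the 7 member windows that the promoter table holds and in 0.225% of all 32851 windows of that length. The shorter core, which lies within that site, was in 6 of the 7 (Ihh, Dhh, Smo, Gli2, Gli3 and Hhip) and in 28.1% of all windows, without matching for base composition. The Ptch1 window held neither, which says only that these letters are not in this stretch.

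The array table has no detection calls, so each value was set beside the 5222 negative control rows of the same array, whose medians ran from 4.41 to 4.77 log2. Shh, Ptch1 and Smo lay above that median on all 9 arrays. Gli3 did so on 6 arrays and Gli1 on 4, whereas Ihh, Dhh, Gli2 and Hhip did so on 0. None of the 9 exceeded the 95th percentile of the negative controls, which was between 8.21 and 8.52, on any array. The median over all transcript clusters was 5.09 to 5.24 per array, so most clusters also lay below that percentile. For the members at or below the control median, a level above background was not detectable. The control rows were taken by the word neg in their names, and how many probes each holds is not known. The medians of the negative controls were themselves higher on the day 3 resected arrays (4.70 ± 0.06, SD, n = 3) than on the mock arrays (4.46 ± 0.06), and whether this entered the member values was not tested.

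**Figure D1:**
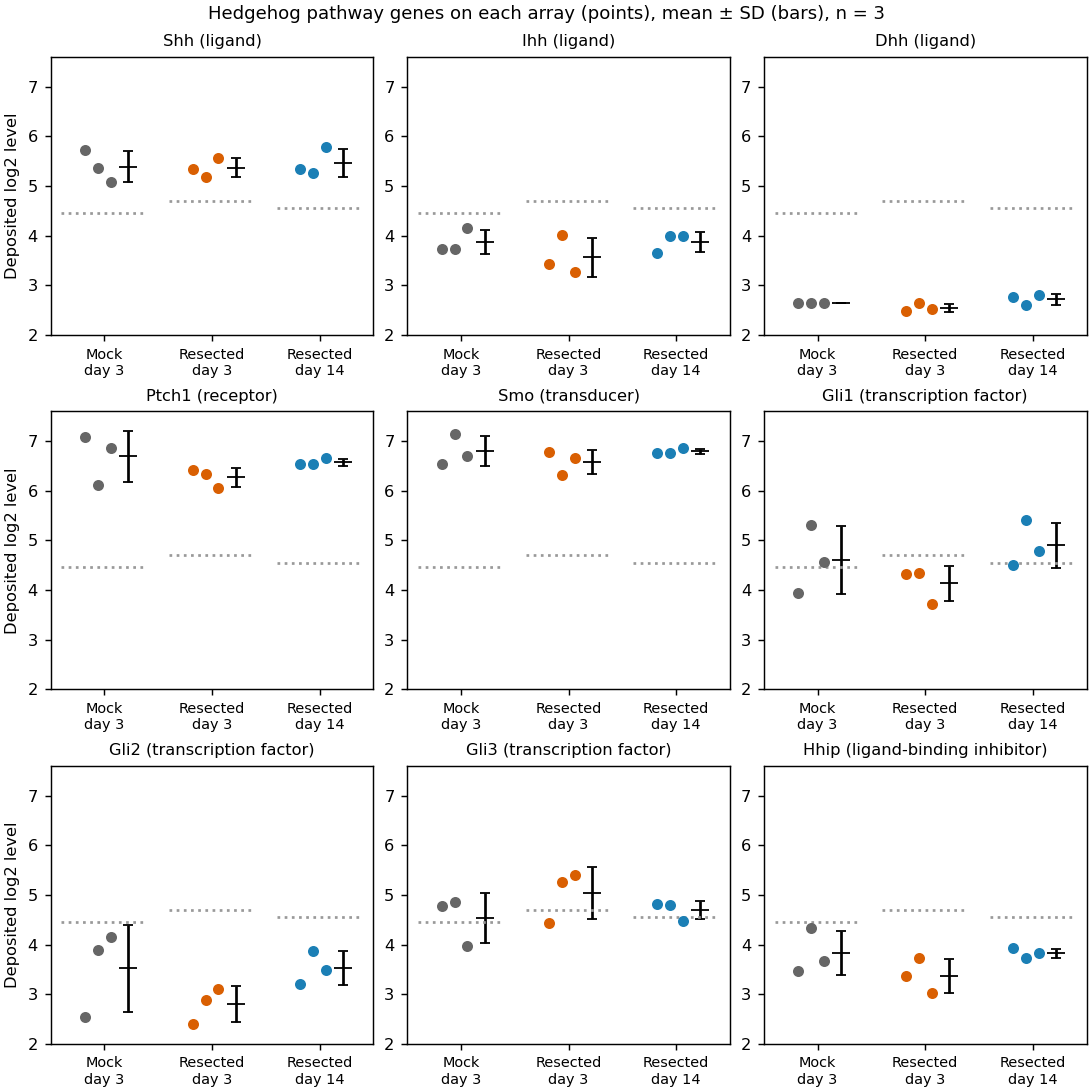
Deposited log2 level of each Hedgehog pathway gene on each array (points), with mean ± SD of the 3 arrays beside them and the mean of the group's negative control medians as a dotted line. Shh, Ptch1 and Smo lie above the dotted line on all 9 arrays, Ihh, Dhh, Gli2 and Hhip below it, and the spread among mock arrays is wide for Gli1, Gli2 and Ptch1.

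Among the ligands, Shh had the steadiest group means. Its log2 levels were 5.72, 5.37 and 5.09 on the mock arrays, 5.35, 5.18 and 5.57 after resection on day 3, and 5.34, 5.27 and 5.79 on the day 14 arrays. The 3 groups overlapped throughout, and their means (5.39 ± 0.32, 5.37 ± 0.20 and 5.46 ± 0.28, SD, n = 3) were closer together than the arrays within any group. Day 3 resected glands differed from mock by -0.02 ± 0.24 log2 (SE; 95% interval -0.54 to 0.49), and day 14 glands by 0.07 ± 0.24 (-0.44 to 0.59). The sign of these differences changed when single arrays were left out.

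Ihh read 3.73, 3.73 and 4.15 in mock glands, 3.44, 4.01 and 3.26 on day 3 and 3.65, 3.99 and 4.00 on day 14, with 2 of the 3 day 3 values below every mock value. Its day 3 difference was -0.30 ± 0.25 (-0.83 to 0.23, adjusted p = 0.580 by limma). Dhh read 2.64, 2.65 and 2.65 in mock glands, 2.48, 2.64 and 2.52 on day 3 and 2.76, 2.60 and 2.81 on day 14. The 9 values of Dhh span 0.34 log2, and all lay below the negative control median. The difference for Dhh was -0.10 ± 0.19 on day 3 and 0.08 ± 0.19 on day 14 against mock.

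Ptch1, the receptor, read 7.09, 6.12 and 6.87 on the mock arrays, 6.42, 6.35 and 6.06 after resection on day 3, and 6.54, 6.54 and 6.66 on the day 14 arrays. Mock replicate 2 lay below 2 of the 3 day 3 values, so those groups overlapped. The day 3 difference from mock was -0.42 ± 0.26 (-0.97 to 0.13, adjusted p = 0.422). It was -0.71 without mock replicate 2 (adjusted p = 0.108) and -0.22 without mock replicate 1. Day 14 glands differed from mock by -0.11 ± 0.26 and from day 3 glands by 0.31 ± 0.26 (adjusted p = 0.581), although all 3 day 14 values lay above all 3 day 3 values.

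Smo, the transducer that Ptch1 restrains, read 6.55, 7.15 and 6.70 in mock glands, 6.78, 6.32 and 6.67 on day 3 and 6.77, 6.77 and 6.86 on day 14. The groups overlapped with mock on both days. Its day 3 difference was -0.21 ± 0.22 (-0.70 to 0.27) and its day 14 difference -0.00 ± 0.22 (-0.49 to 0.48). The 3 day 14 arrays lay within 0.09 log2 of each other for Smo and within 0.13 for Ptch1, against 0.59 and 0.97 among the mock arrays.

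Gli1, a target and an activator, had the largest range of group means among the 9 members (0.77 log2). Its levels were 3.95, 5.31 and 4.57 on the mock arrays, 4.33, 4.34 and 3.73 on day 3, and 4.51, 5.41 and 4.78 on day 14. The mock arrays alone spanned 1.36 log2 and covered most of the other values. Day 3 resected glands differed from mock by -0.48 ± 0.34 (-1.22 to 0.27, adjusted p = 0.518), which became -0.13 when mock replicate 2 was left out and -0.81 when mock replicate 1 was. Day 14 exceeded day 3 by 0.77 ± 0.34 (0.02 to 1.51), with a higher level on 3 of 3 day 14 arrays than on any day 3 array. That difference failed the adjustment (unadjusted p = 0.0444, adjusted p = 0.252).

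Gli2, which acts mainly as an activator, read 2.53, 3.88 and 4.15 on the mock arrays, 2.40, 2.89 and 3.10 on day 3, and 3.21, 3.87 and 3.49 on day 14. Mock replicate 1 lay among the day 3 resected arrays while the other two mock arrays lay above them. The day 3 difference was -0.73 ± 0.37 (-1.53 to 0.08, adjusted p = 0.328). Without mock replicate 1 it was -1.22 ± 0.29 with an adjusted p of 0.0292, the only call of any member in any alternative run; over the arrays left out in turn it ran from -1.22 to -0.41. Day 14 glands differed from day 3 glands by 0.73 ± 0.37 (adjusted p = 0.319) and from mock by 0.01 ± 0.37.

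Gli3, whose processed form is the main repressor of the pathway, was the only member whose mean was higher on day 3 than in mock glands. It read 4.78, 4.86 and 3.96 on the mock arrays, 4.44, 5.26 and 5.41 on day 3, and 4.81, 4.80 and 4.48 on day 14. Day 3 replicates 2 and 3 lay above all mock values and replicate 1 among them. The difference was 0.50 ± 0.30 (-0.15 to 1.16, adjusted p = 0.419) on day 3, and day 14 glands differed from day 3 glands by -0.34 ± 0.30 (adjusted p = 0.611).

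Hhip, the decoy for ligand, read 3.47, 4.34 and 3.67 on the mock arrays, 3.36, 3.72 and 3.03 on day 3, and 3.92, 3.73 and 3.82 on day 14. Only day 3 replicate 2 exceeded any mock value. The day 3 difference was -0.46 ± 0.26 (-1.03 to 0.11, adjusted p = 0.384), and day 14 differed from day 3 by 0.46 ± 0.26 (adjusted p = 0.387) and from mock by -0.00 ± 0.26. Mock replicate 2 was the highest of the 9 arrays for Hhip and Smo, and the lowest mock array for Ptch1. The members did not share 1 order of the mock arrays.

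**Figure D2:**
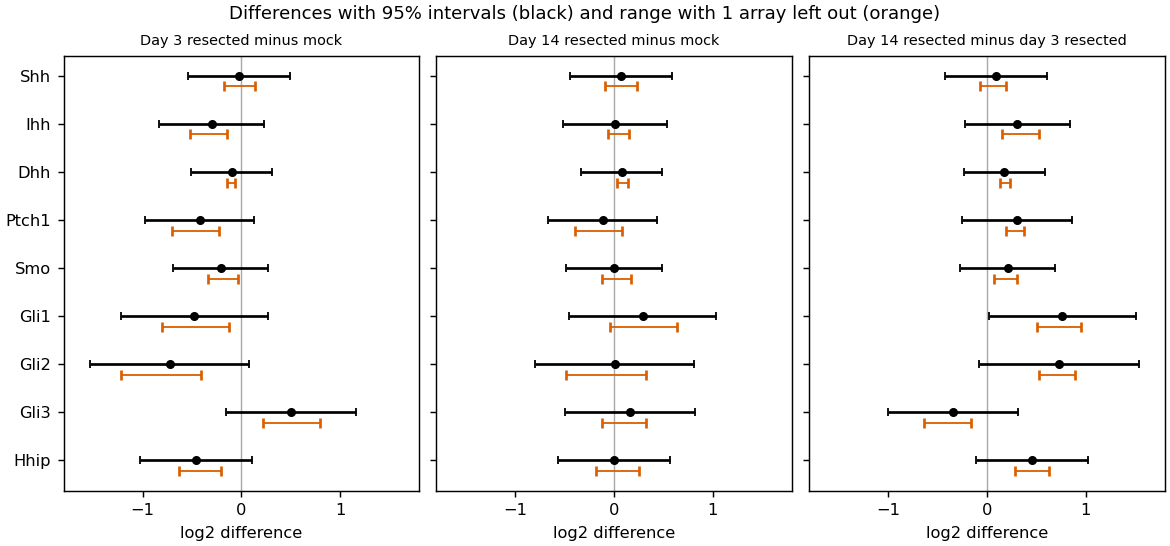
log2 difference of each member in the 3 comparisons (black points) with the 95% interval from limma (black bars), and below each the range when 1 array at a time was left out (orange). All intervals include 0 except that of Gli1 in day 14 against day 3 resected glands (0.02 to 1.51), whose adjusted p was 0.252.

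Read side by side, 8 of 9 members had a lower mean on day 3 after resection than after mock surgery, with a median of -0.30 log2, while 56.9% of all transcript clusters were lower and their median was -0.06. On day 14, 3 of 9 were lower than in mock glands (median 0.01), against 50.2% of all transcript clusters (median -0.00). Between the resected groups, 8 of 9 were higher and 1 lower on day 14 (median 0.31), while 43.5% of all transcript clusters were lower (median 0.06). Each pair of comparisons shares 1 group of arrays, so these counts are not separate observations. The day 3 median was -0.13 without mock replicate 2 and -0.46 without day 3 resected replicate 2, and 7 of 9 were lower without that array or without mock replicate 1. For day 14 against mock the number lower ran from 1 (array weights) to 5 (median centring, and without mock replicate 1, mock replicate 3 or day 14 resected replicate 3), with medians from -0.04 to 0.17. Between the resected groups the median was 0.20 without day 3 resected replicate 3, and 7 of 9 were higher without day 14 resected replicate 3.

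The groups did not overlap for 0 of 9 members on day 3 against mock, where 23% of all transcript clusters did not, and for 0 of 9 on day 14 against mock (13%). Between the resected groups they did not overlap for 4 of 9 (25.4% of all transcript clusters), namely Ptch1, Gli1, Gli2 and Hhip. All 4 were higher on day 14, as were 12.9% of all transcript clusters by the same rule. None of these differences passed the test. Of the 4, only Ptch1 lay above the negative control median on all 9 arrays. Gli1 did so on 4 arrays, and Gli2 and Hhip on 0. The highest day 3 resected value of Gli1 (4.34) lay below the lowest control median of that group (4.65). For Gli1, Gli2 and Hhip a level above background was therefore not detectable on the day 3 resected arrays.

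Genes that act with these 9 were read from 5 lists of the pathway, with 79 measured genes of 86 listed. Between day 3 resected and mock glands, 1 of the 79 rose and 1 fell, with 6.27% of all transcript clusters called. Between day 14 resected and mock glands 0 of 79 passed by limma (0.153% of all transcript clusters), with 8 at an unadjusted p under 0.05 (8.18% of all transcript clusters). Between day 14 and day 3 resected glands 0 rose and 3 fell (6.28% of all transcript clusters called). At an unadjusted p under 0.05 the counts were 16 of 79 on day 3 (18.6% of all transcript clusters) and 13 of 79 between the resected groups (18.9%).

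The gene that rose was Osr2, a transcription factor of embryonic mesenchyme whose expression in the mouse palate depends on Hedgehog signalling. It read 3.48, 4.02 and 3.60 on the mock arrays, 4.91, 5.17 and 4.75 after resection on day 3, and 3.64, 3.91 and 4.10 on the day 14 arrays. All 3 day 3 values lay above all other values. They were above the negative control median of their own array on 3 of 3 day 3 arrays, against 0 of 3 mock and 0 of 3 day 14 arrays, and above the 95th percentile of the controls on 0 arrays. A level above background was therefore not detectable for Osr2 in mock or day 14 glands, and the control medians themselves were higher on day 3 (given above). By the fit, Osr2 rose by 1.24 ± 0.23 log2 on day 3 (SE; limma adjusted p = 0.00502), and the call held in all 14 alternatives run, with differences from 1.13 to 1.40. It fell by 1.06 ± 0.23 from day 3 to day 14 (adjusted p = 0.0136), a call lost without day 3 resected replicate 2 or day 14 resected replicate 1 (adjusted p 0.0638 to 0.0695), and on day 14 it differed from mock by 0.18 ± 0.23.

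Osr2 was the only gene called among 17 measured response genes (2 rose on day 3 without mock replicate 1), which include Foxf1, Foxf2, Foxl1, Mycn, Bcl2 and Bmp4 from embryonic or tumour tissues. Their median difference was 0.01 log2 on day 3, 0.03 on day 14 against mock and -0.08 on day 14 against day 3. With the dimmest 30% of clusters left out, which leaves 7 of the genes, the medians were 0.65, 0.18 and -0.37. Over the alternatives the sign of each changed (lowest -0.07 and -0.07 in the comparisons with mock, highest 0.11 on day 14 against day 3). The closest in size to Osr2, named here after its value was seen, was the Wnt antagonist Sfrp1, which differed by 1.23 ± 0.39 on day 3 (adjusted p = 0.0956). Foxf1 and Foxf2, forkhead factors of Hedgehog-responding mesenchyme, differed by 0.01 ± 0.27 and 0.03 ± 0.22 on day 3. For the members Ptch1, Gli1 and Hhip the day 3 differences were -0.42, -0.48 and -0.46, and none of them passed. On the day 3 resected arrays Gli1 and Hhip lay below the negative control medians. Whether Hedgehog signalling entered the Osr2 difference was not tested.

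Ligand release and reception had 0 calls in all 3 comparisons. The 5 genes of ligand release (the acyltransferase Hhat, the exporter Disp1 and the Scube carriers) differed by -0.20 to -0.01 on day 3, with a median of -0.16 that ran from -0.23 with median centring to 0.04 without day 3 resected replicate 2. The 8 measured genes of reception, which include the co-receptors Cdon, Boc and Gas1, had a median of 0.21 on day 3 (0.09 without mock replicate 3), 0.28 on day 14 against mock and -0.09 on day 14 against day 3 (0.11 without day 3 resected replicate 3). Cdon read 7.71 ± 0.18 in mock glands and differed by 0.12 ± 0.25 on day 3 and 0.48 ± 0.25 on day 14 (adjusted p = 0.653).

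Among 24 measured genes of signal relay between Smo and the Gli factors, Dyrk2 alone was called. This kinase phosphorylates Gli2 and Gli3 in mammalian cells. It read 7.79, 7.77 and 7.14 in mock glands, 6.38, 6.76 and 6.82 on day 3 and 7.21, 7.19 and 7.48 on day 14, so the day 3 arrays lay below all others. Dyrk2 fell by 0.91 ± 0.24 on day 3 (adjusted p = 0.0396). The call was lost in 8 of 14 alternatives, among them those that left out mock replicate 1, mock replicate 2 or a single array of the day 3 resected group (adjusted p 0.0519 to 0.131 over the 8), with differences from -1.12 to -0.77. The median of the list was 0.01 on day 3 and ran from -0.11 to 0.06 over the alternatives.

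The primary cilium, where Smo acts, was covered by 25 measured genes. Their median was 0.03 on day 3 with 0 called and -0.03 on day 14 against day 3, where 2 fell. Both medians changed sign when single arrays were left out (-0.11 without mock replicate 3, and 0.18 without day 3 resected replicate 2). Over the alternatives 0 to 1 rose and 0 to 2 fell on day 3, and 0 to 2 rose and 0 to 2 fell on day 14 against day 3. Ift80, a subunit of the intraflagellar transport complex, read 5.54, 5.58 and 5.59 in mock glands, 5.90, 6.63 and 6.42 on day 3 and 5.02, 5.43 and 5.60 on day 14. It fell by 0.97 ± 0.24 from day 3 to day 14 (adjusted p = 0.0301). Cep290, a protein of the ciliary transition zone, fell by 0.98 ± 0.25 (adjusted p = 0.0309), from 8.43, 8.50 and 8.58 on day 3 to 7.33, 7.89 and 7.34. For both, all day 14 values lay below all day 3 values. The calls were lost in 6 and 7 of 14 alternatives, among them without day 3 resected replicate 2 or 3 or day 14 resected replicate 1 for each, without day 14 resected replicate 2 for Ift80, and without day 3 resected replicate 1 or day 14 resected replicate 3 for Cep290 (adjusted p 0.0511 to 0.134). The largest difference in the list, named here after its value was seen, was that of Bbs4, a subunit of the complex that carries membrane proteins into and out of cilia, and it had the opposite direction. Bbs4 read 7.56, 6.82 and 7.22 in mock glands, 5.15, 6.54 and 6.26 on day 3 and 7.05, 7.45 and 6.94 on day 14. It differed from mock by -1.22 ± 0.34 on day 3 (adjusted p = 0.0506), and day 14 differed from day 3 by 1.16 ± 0.34 (adjusted p = 0.0623).

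**Figure D3:**
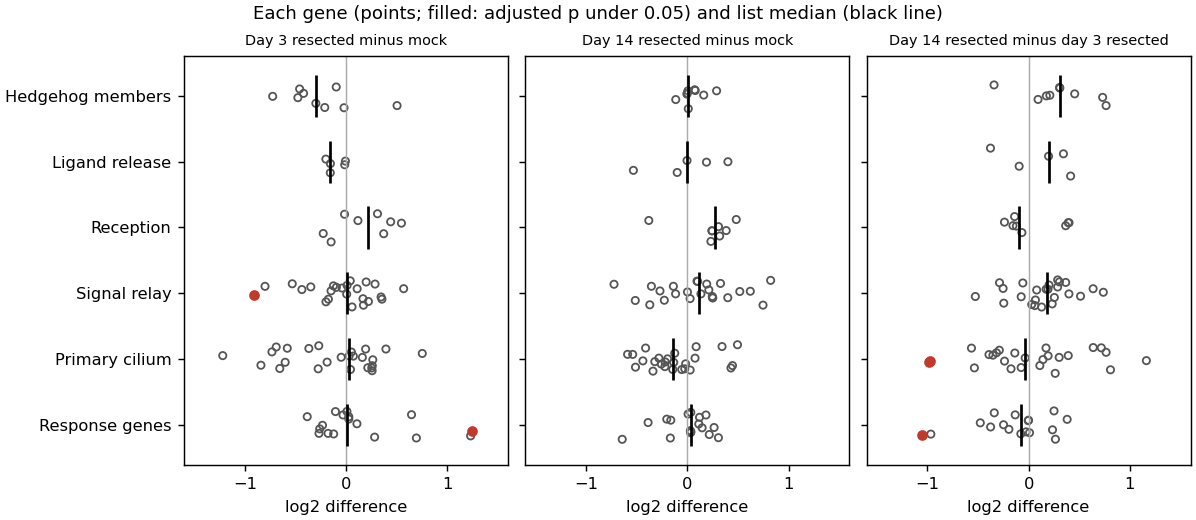
log2 difference of every measured gene in the 9 members and 5 pathway lists (points, filled where the adjusted p was under 0.05) with the list median as a black line, for the 3 comparisons. The filled points are Osr2 and Dyrk2 on day 3 against mock and Osr2, Ift80 and Cep290 on day 14 against day 3, the last pair overlapping.

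Fibroblasts and other stromal cells are the usual Hedgehog-responding cells of glands, so stromal levels were read beside the members. Of 12 measured fibroblast genes 9 rose and 0 fell on day 3, with a median of 2.33 log2, where 6.27% of all transcript clusters were called. Their mean level went from 9.51 to 10.28 on mock arrays to 11.8 to 13.1 on day 3 resected arrays. The collagen genes Col1a1 and Col3a1 rose by 5.12 ± 0.58 and 4.69 ± 0.42. Over the same arrays the mean level of the 9 members was 4.50 to 4.82 in mock glands, 4.33 to 4.52 on day 3 and 4.61 to 4.77 on day 14. Of 13 duct genes, from the epithelium that makes Shh in the embryo, Krt19 rose and Scnn1g fell on day 3, and the list median was -0.41. Serous acinar genes, which define the tissue, averaged 13.15 to 13.20 log2 over the list on mock arrays; 3 of 8 fell on day 3 and the median was -0.90. Whether these shifts of the marker lists entered the member values was not tested.

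**Figure D4:**
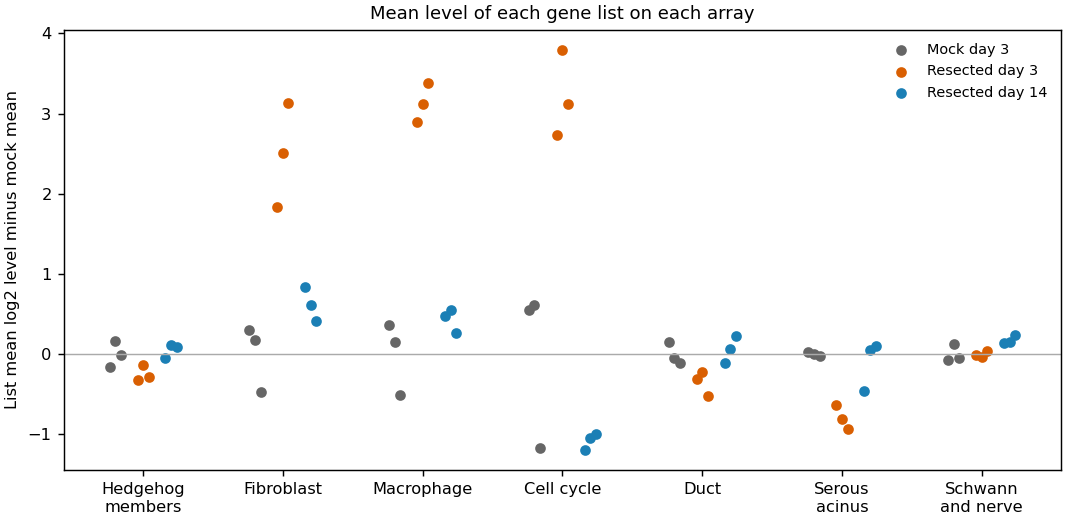
Mean log2 level of the 9 Hedgehog members and of 6 marker lists on each array, as the difference from the mean of the mock arrays. Fibroblast, macrophage and cell cycle lists stand 1.8 to 3.8 above the mock mean on the day 3 resected arrays, while the mean of the Hedgehog members runs from -0.32 to 0.17 of it over all 9 arrays.

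Since no member passed, likeness was computed for Gli1, the member with the largest range of group means. The measure was the root mean square difference over the 9 arrays between log2 values, each gene centred on its own mean, over 18496 genes with a symbol. The nearest were Ccer2 (0.147), Cfap100 (0.183), Tmem121b (0.201) and Olfr411 (0.209), with a median of 0.602 over all genes. Gli1 itself had a root mean square of 0.526 about its mean and an SD within groups of 0.516, so the measure takes in the spread between replicates. The group means of Tmem121b and Olfr411 lay below the negative control medians. So did those of Ccer2 in mock and day 3 resected glands (4.27 and 3.90, against mean control medians of 4.46 and 4.70). The day 3 mean of Gli1 (4.13) also lay below them. Likeness was not tested against chance. Ccer2 read 4.27 ± 0.69 in mock glands, 3.90 ± 0.48 on day 3 and 4.62 ± 0.43 on day 14 (SD, n = 3), beside 4.61 ± 0.68, 4.13 ± 0.35 and 4.90 ± 0.46 for Gli1.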

How the data were processed

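Per the labels, total RNA was extracted with TRIzol and hybridised to Clariom S arrays, and per the submitters' processing notes and the series' design text the authors made the deposited log2 values with Transcriptome Analysis Console 4.0 and RMA, which corrects background, normalises between arrays and summarises probes. The sources used here do not give the build or annotation. Of 28846 rows, 6640 are controls and were left out of the tests. The other 22206 have no low-value filter. Symbols come from the platform's probe table, updated by Entrez ID to RefSeq GRCm38.p6 (19572 clusters with 1 symbol). For symbols with several clusters the brightest was used.

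limma 3.58.1 (R 4.3.3) was fitted to all 9 arrays as group means with moderated variances (6 residual and 6.63 prior degrees of freedom), two-sided, with Benjamini-Hochberg adjustment per comparison and a threshold of 0.05. The number of arrays limits the precision, and each p-value sets a difference between groups against the spread between arrays within the groups. The fit was tested on simulated data with known changes. Members and gene lists were chosen with earlier results of these data known. Named genes were the 9 members, the up to 4 largest calls of each pathway list, the 2 largest calls of each marker list (or its first 2 symbols) and the 4 nearest to Gli1. Cdon, Foxf1, Foxf2, Sfrp1 and Bbs4 fall outside this rule and were named after their values were seen. The rule was not followed in full: the called serous acinar genes were not named, and the duct calls on day 14 against day 3 were not given. The marker lists cover fibroblasts, Schwann cells and nerve, perineurium, smooth muscle, duct, basal cells, acini, macrophages, cell cycle, endothelium, fat, skeletal muscle and lymph node. Alternatives were scaling, a filter on the dimmest 30% of clusters, variance settings, array weights, the 2 groups alone, a replicate block and leaving out each array. Replicate numbers are shared between groups, but the 9 same-numbered pairs correlated at -0.09 to 0.05 in their deviations from group means, so they were not treated as pairs.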

Additional observations from a re-analysis of the deposited data

How the results depend on the processing

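The count of members called was 0 of 9 in every alternative of the 3 comparisons except day 3 resected against mock without mock replicate 1, where Gli2 was called (counts of 0 to 1 over the arrays left out). The dimmest 30% filter removed Dhh, Gli2 and Hhip, and the other 6 were still not called. No member exceeded the 99th percentile of the negative controls either, which was 11.98 to 12.69 over the arrays and above most clusters. Over all transcript clusters, the counts with 1 array left out ran from 850 to 1295 on day 3 (850 without day 3 resected replicate 3), from 20 to 58 on day 14 against mock (20 and 22 without day 14 resected replicates 2 and 3, 58 without mock replicate 3) and from 874 to 1386 on day 14 against day 3 (874 without day 3 resected replicate 3). The day 14 count of 34 became 56 with a mean-variance trend, and the cause was not tested. The replicate block gave 0 members called in each comparison and 1283, 26 and 1297 clusters, and it lost the calls of Dyrk2 and Cep290.

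Signs changed mainly for day 14 against mock, where the differences were near 0. Quantile normalisation and median centring gave -0.0227 and -0.00922 for Ihh and -0.0175 and -0.0124 for Gli2. Quantile normalisation and array weights gave 0.00978 and 0.0252 for Smo, and array weights gave 0.0308 for Hhip. With 1 array left out the day 14 differences ran from -0.0902 to 0.235 for Shh, -0.0610 to 0.147 for Ihh, -0.401 to 0.0831 for Ptch1, -0.124 to 0.172 for Smo, -0.0412 to 0.638 for Gli1, -0.49 to 0.32 for Gli2, -0.12 to 0.32 for Gli3 and -0.18 to 0.25 for Hhip. Shh also ran from -0.17 to 0.14 on day 3 and from -0.0688 to 0.195 on day 14 against day 3. The mean of several clusters per symbol was not run, since each member has 1.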

Other observations

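Dhh is made by Schwann cells, and 13 measured genes of Schwann cells and nerve were read beside it. Of these 0 rose and 0 fell on day 3 against mock (median 0.17) or on day 14 against mock (median 0.03), and 1 rose on day 14 against day 3, the neurotrophin receptor Ngfr (1.33 ± 0.29, limma adjusted p = 0.0141). Of all transcript clusters, 6.27%, 0.153% and 6.28% were called in these comparisons, in the same order. The glial transcription factor Sox10, which the gland epithelium also expresses, differed by -0.96 ± 0.39 on day 3 (adjusted p = 0.208). Among 7 genes of the perineurium, the nerve sheath that responds to Dhh in the mouse, Krt19 rose on day 3 (1.04 ± 0.27, adjusted p = 0.0366) and the tight junction gene Cldn1 rose on day 14 against day 3 (2.14 ± 0.28). Both are also epithelial genes.

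Of the remaining marker lists, the macrophage genes rose on day 3 in 11 of 11 (Lyz2 by 4.42 ± 0.35, Itgam by 4.32 ± 0.31) and the cell cycle genes in 14 of 14 (Cdk1 by 4.17 ± 0.72, Mcm6 by 4.16 ± 0.57). Of all transcript clusters 6.27% were called on day 3. Endothelium had 1 of 8 that rose (Eng, 1.47 ± 0.31), smooth muscle and pericytes 1 of 8 that fell (Myh11, -1.07 ± 0.26) and lymph node 1 of 6 that rose (Cxcl13, 3.17 ± 0.39). Single calls in lists this short cannot be set apart from that share. By direction alone, 8 of 8 endothelium genes were higher (median 0.45), 4 smooth muscle and pericyte genes were higher and 4 lower, and 5 lymph node genes were higher and 1 lower. Basal cells and myoepithelium, adipocytes and skeletal muscle had 0 calls on day 3 by limma. On those arrays Krt5 differed by 0.71 ± 0.33, Krt14 by 0.33 ± 0.29, Adipoq by 0.13 ± 0.75, Plin1 by -0.42 ± 0.37, Acta1 by 0.29 ± 0.28 and Ckm by -0.38 ± 0.21.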
